A study of Mus musculus with 23 samples.

Results

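The 5 genes described here encode the kinases CDK4 and CDK6 and the D-type cyclins that activate them: Cdk4, Cdk6, Ccnd1, Ccnd2 and Ccnd3. They were taken by name from the 3826 genes of a targeted mouse panel, and all 5 were on it and passed the filter on low counts. The samples were 23 mouse mammary carcinomas, from animals in which doxycycline induction began at 6 weeks of age. Once tumours were established the animals were randomized, and 11 tumours came from vehicle-treated controls and 12 from animals that received abemaciclib, an inhibitor of CDK4 and CDK6, at 90 mg/kg daily by gavage. Tissue was frozen after the 12th dose. The sources used here do not name the strain, the induced transgene or its promoter, or say whether any tumours shared an animal, so the p-values below measure the spread between tumours taken as independent.

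D-type cyclins are the part of the cell cycle engine that responds to growth signals. Mitogens raise cyclin D, which binds CDK4 or CDK6. The active complex phosphorylates RB and its relatives, which releases E2F factors that switch on genes for DNA replication. INK4 proteins bind the 2 kinases and block them, and in mammary epithelium cyclin D1 with CDK4 is the best known pairing, needed for tumours driven by ERBB2.

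Libraries held 2756919 to 4990391 counts, with ranges that overlapped between groups. Each gene is read through 1 short amplicon, so no length correction applies, but the yield of each amplicon is unknown. CPM, a gene's counts relative to the scaled library total, therefore compare a gene between tumours, while the order of the genes is an order of reads and not of RNA molecules. Markers of luminal mammary epithelium, of which 7 of 10 were on the panel, were present in every tumour, with sums of 5858 to 8457 CPM (control) and 5184 to 11680 CPM (abemaciclib). In bulk tissue a lower share of a cell type and less RNA per cell cannot be told apart.

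Cdk4 (ENSMUSG00000006728.12; mm10, chromosome 10, 127063534 to 127067920, plus strand) encodes the kinase that is the drug's main target. Where its amplicon lies within the gene was not known, and this holds for the other 4 genes. RefSeq promoter windows (GRCm38.p6) matched 3 of the 5 genes, Cdk4, Cdk6 and Ccnd3. The Cdk4 window is shown because it holds 4 copies of CACGTG, the E-box bound by MYC and related factors, in capitals below. It covers chr10:127063285-127063533, plus strand, 249 bases up to the base before the annotated gene start.

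Cdk4: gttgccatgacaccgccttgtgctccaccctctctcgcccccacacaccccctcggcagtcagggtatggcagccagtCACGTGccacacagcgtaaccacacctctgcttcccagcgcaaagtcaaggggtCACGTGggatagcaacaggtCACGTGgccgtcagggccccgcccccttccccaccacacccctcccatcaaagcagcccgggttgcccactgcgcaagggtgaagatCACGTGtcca

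Of 32851 promoter windows of 250 bases, 6.02% held CACGTG at least once, and 0.0213% held it 4 times or more. The palindrome reads the same on both strands. The Cdk6 window held it once and neither Ccnd3 window held it. The GC box GGGCGG, searched on both strands and overlapping no E-box in the Cdk4 window, was found once there, as in 32.7% of windows. No member window held any of TTTCCCGC, TTTCGCGC, TTTGCCGC or TTTGGCGC on either strand, the E2F motifs searched, which 1.86% of windows held. A match is a sequence description and does not show binding.

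Transcript levels of the drug's targets overlapped between the groups. Cdk4 ranged from 168 through a median of 389 to 599 CPM in control and from 176 through 312 to 665 CPM in abemaciclib tumours. Control tumour 11 and abemaciclib tumour 1 were lowest, control tumour 7 and abemaciclib tumour 9 were highest, and 11 of 12 abemaciclib tumours lay inside the control range. The means were 389 ± 128 CPM (SD, n = 11) and 352 ± 157 CPM (SD, n = 12). The fitted difference was -0.14 on the log2 scale (95% interval -0.60 to 0.31, SE 0.222, adjusted p = 0.829), and -0.26 to -0.064 with any 1 tumour left out. Adjusted p-values are from edgeR's quasi-likelihood test with Benjamini-Hochberg adjustment over the 2925 genes tested. By that test 0 genes, 0.0% of those tested, passed in either direction at an adjusted p under 0.05. At an unadjusted p under 0.05, 7.59% were higher and 5.81% lower with abemaciclib, and 1 of the 5 members, Ccnd2, was among the higher ones. Other tools called more genes, limma-voom 127 and the Wald test of DESeq2 60, but no member by either.

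Cdk6 (ENSMUSG00000040274.11; chromosome 5, 3341485 to 3531008, plus strand) encodes the second target, a kinase best known from blood cells. It gave far fewer reads than Cdk4, 97 to 178 counts per control tumour and 51 to 289 per abemaciclib tumour. Its level was 24.8 to 44.2 CPM in control, with a median of 35.2, and 15.9 to 60.8 CPM in abemaciclib tumours, with a median of 31.9. Of the 12 abemaciclib tumours, 4 lay above every control tumour (tumours 3, 4, 9 and 10), 4 lay below every one (tumours 1, 5, 11 and 12), and 4 lay inside the control range. The means, 34.1 ± 6.20 and 35.5 ± 15.9 CPM, were close, and the fitted log2 difference was 0.06 (95% interval -0.37 to 0.48, SE 0.206, adjusted p = 0.941 by edgeR). That sign turned with the scaling, to -0.040 on library totals alone, where the median over all genes was itself at -0.12.

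The spread of Cdk6 was wider in abemaciclib tumours, but not past adjustment over all genes. The SD of log2 CPM was 0.261 in control and 0.660 in abemaciclib tumours, a ratio of 2.53. Of tested genes 2.43% had a ratio as high. Over all of them the median ratio was 1.14, and 63.3% were wider with abemaciclib. A permutation test of the ratio, two-sided over group-centred tumours and chosen after the values were seen, gave p = 0.0025, which did not pass adjustment over all genes (adjusted p = 0.242). In that test 0.0% of genes passed as wider after adjustment and 7.52% did at an unadjusted p under 0.05, with 0.957% narrower. The ratio stayed at 2.33 to 2.86 with any 1 tumour left out. For the other members it was 1.83 for Ccnd1 (p = 0.0301, adjusted p = 0.512), 1.19 for Cdk4, 1.01 for Ccnd2 and 0.916 for Ccnd3, the last 3 with unadjusted p from 0.526 to 0.969.

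Ccnd1 (ENSMUSG00000070348.5; chromosome 7, 144929931 to 144939925, minus strand) encodes cyclin D1, the main mammary D-type cyclin. Control tumours ran from 214 through a median of 423 to 830.0 CPM, and abemaciclib tumours from 107 through 307 to 921 CPM. Abemaciclib tumours 3 and 10 lay above every control tumour, tumours 1, 7, 11 and 12 lay below every one, and the other 6 lay between. The means were 464 ± 193 and 415 ± 284 CPM, and the log2 difference by edgeR was -0.16 (95% interval -0.82 to 0.50, SE 0.321, adjusted p = 0.877). Without abemaciclib tumours 3 and 10, left out after their high Ccnd1 and Ccnd2 were seen, it was -0.55 (adjusted p = 0.324), with any 1 tumour left out it ran from -0.33 to -0.042, and by limma-voom it was -0.48.

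Ccnd3 (ENSMUSG00000034165.16; chromosome 17, 47505051 to 47599691, plus strand), which encodes cyclin D3, was the steadiest of the 5. It held 232 to 393 CPM in control, with a median of 312, and 275 to 390.2 CPM in abemaciclib tumours, with a median of 309.9. All 12 abemaciclib tumours lay inside the control range. Its coefficient of variation was 12.9% among controls and 12.5% under abemaciclib, and 9.57% and 5.64% of tested genes varied less. By edgeR the log2 difference was 0.04 (95% interval -0.13 to 0.21, SE 0.0838, adjusted p = 0.884), the narrowest interval among the members. It turned to -0.093 on library totals and to -0.0037 without control tumour 8.

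Ccnd2 (ENSMUSG00000000184.12; chromosome 6, 127125162 to 127152193, minus strand) encodes cyclin D2 and had the lowest reads and the largest difference. Control tumours held 2.11 CPM at the lowest, 9.18 at the median and 21.9 at the highest, on 10 to 98 counts. Abemaciclib tumours held 5.77, 15.1 and 49.6 CPM, on 24 to 259 counts. Tumours 3, 4 and 10 lay above every control tumour and 11 of 12 lay above the control median, while 9 of 12 were still inside the control range. The means were 10.7 ± 5.92 and 20.1 ± 13.7 CPM, and the log2 difference was 0.91 (95% interval 0.19 to 1.63, SE 0.351), which did not pass over all genes by edgeR (p = 0.0156, adjusted p = 0.218). It stood at 0.60 (adjusted p = 0.369) without tumours 3 and 10, a smaller value by more than 1.5 times, and at 0.70 to 1.07 with any 1 tumour left out.

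**Figure D1:**
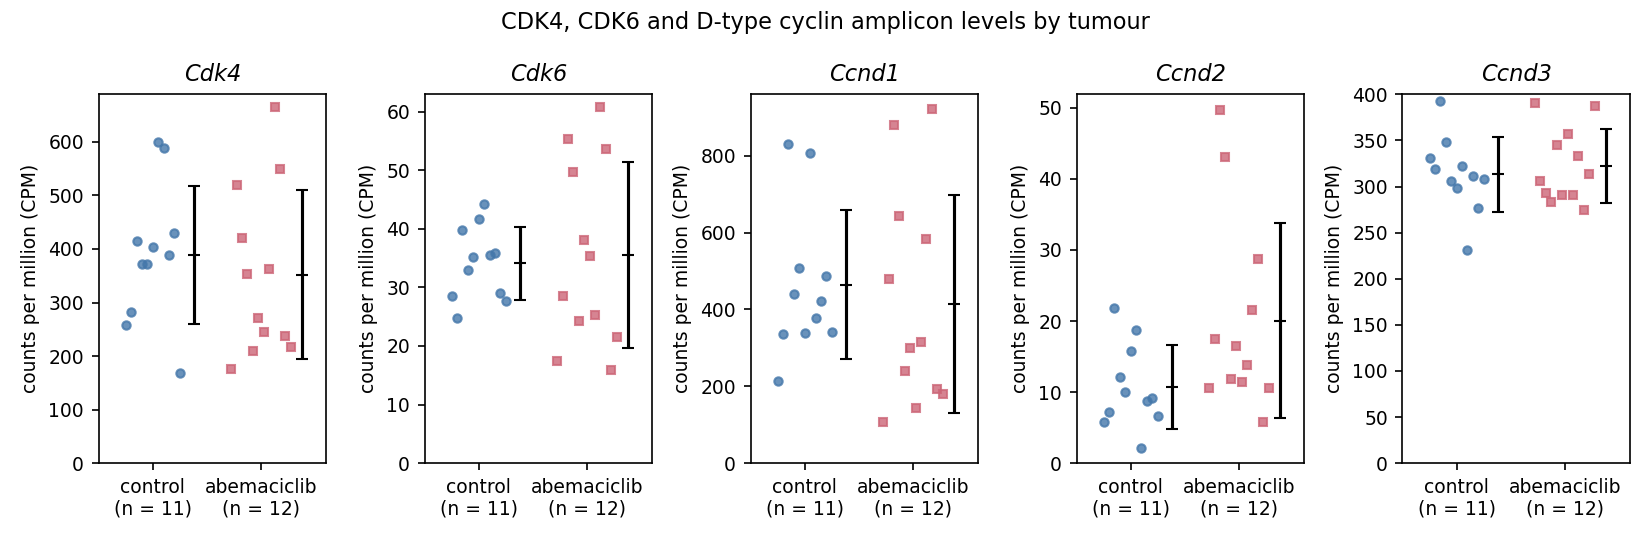
Level of each gene in CPM (vertical axes, each from 0) in 11 control tumours (circles) and 12 abemaciclib tumours (squares), with the mean and SD as a bar beside them. The 12 abemaciclib values of Ccnd3 lie inside the control range, those of Cdk6 reach both above and below it, and 11 of 12 for Ccnd2 lie above the control median.

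Other cells of the tumour can also hold Ccnd2 transcripts, so levels of their markers are given beside it. Macrophage markers, 6 of 11 on the panel, summed to 1431 to 3013 CPM among controls and 1907 to 4544 CPM under abemaciclib. Most of that sum was Cd14 (means of 1393 CPM among controls and 1869 under abemaciclib), followed by C1qa (581 and 802). Fibroblast markers, 7 of 9, summed to 2956 to 7574 and 1436 to 19520 CPM, and basal or myoepithelial markers, 5 of 7, to 818 to 5158 and 555 to 12790 CPM. T cell markers, 9 of 10, summed to 17.2 to 72.3 and 20.1 to 101 CPM. Across abemaciclib tumours log2 Ccnd2 had Pearson's r of -0.63 with the macrophage sum, 0.38 with the fibroblast sum, 0.15 with the T cell sum and 0.70 with the basal sum, none past adjustment over the 110 such relations computed (adjusted permutation p = 0.171, 0.482, 0.789 and 0.101). Their part in the Ccnd2 difference was not tested.

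Shares within a family do not depend on library scaling, so the paralogues were also compared as ratios within each tumour. A total of 9 shares and log2 ratios were tested by two-sided permutation of the group labels, with Benjamini-Hochberg adjustment over the 9. Ccnd2 was higher with abemaciclib relative to Ccnd1 and as a share of D-type cyclin counts, but did not pass relative to Ccnd3. The balance of CDK4 to CDK6 did not pass. The groups overlapped in every share and ratio.

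Ccnd2 supplied 0.344% to 2.41% of D-type cyclin counts in control tumours, with a median of 1.19%, and 1.13% to 4.44% in abemaciclib tumours, with a median of 2.24%. The lowest share, in control tumour 8, rested on 10 counts (95% Wilson interval 0.187% to 0.633%), and the highest, in abemaciclib tumour 4, on 213 counts (3.89% to 5.06%). Such intervals treat each read as independent and cover no spread between tumours. Amplicon reads carry no molecular identifiers, so copies of 1 molecule count as separate reads and the intervals can be too narrow. The share was 1.31% ± 0.524 (SD, n = 11) and 2.46% ± 0.918 (SD, n = 12), a rise of 1.15 percentage points (SE 0.309, p = 5.6e-04, adjusted p = 0.00252, permutation test), with 11 of 12 abemaciclib tumours above the control median and 3 above every control tumour.

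The clearest separation was in Ccnd2 relative to Ccnd1. The log2 ratio ran from -7.42 through a median of -5.53 to -4.41 in control and from -5.03 through -4.25 to -3.32 in abemaciclib tumours. All 12 abemaciclib tumours lay above the control median and 7 lay above every control tumour, with the groups overlapping between -5.03 and -4.41. The means were -5.54 ± 0.723 and -4.30 ± 0.535, a rise of 1.24 (SE 0.267, p = 3e-05, adjusted p = 2.7e-04, permutation test). From counts plus 0.5, this rise was 4.66 standard errors. Ratios of any 2 tested genes were taken from log2 CPM instead, which uses a prior count of 2. Of them 16.4% differed between the groups by over 2 standard errors and 0.276% by at least as many as Ccnd2 over Ccnd1. Among ratios to Ccnd1 alone, 7.25% passed 2 standard errors and 0.41%, 12 of 2924 genes, were as far apart. The rise was 1.06 to 1.36 with any 1 tumour left out and 1.30 (p = 6e-05) without abemaciclib tumours 3 and 10.

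No other paralogue balance passed. Ccnd2 over Ccnd3 differed by 0.82 (SE 0.375, p = 0.0421, adjusted p = 0.126) and Ccnd3 over Ccnd1 by 0.42 (SE 0.377, p = 0.287, adjusted p = 0.444). The latter was 0.25 without abemaciclib tumour 1 and 0.75 without tumours 3 and 10 (p = 0.0428, adjusted p = 0.0927). Of D-type cyclin counts, Ccnd1 made up 57.2% ± 8.79 among controls and 49.5% ± 18.0 under abemaciclib (p = 0.211, adjusted p = 0.444), with a range of 38.9% to 70.3% and of 21.1% to 75.2%. Ccnd3 made up 41.5% ± 8.86 and 48.1% ± 18.6, a difference of 6.58 percentage points (p = 0.296, adjusted p = 0.444) that was 3.96 without tumour 1 and 11.6 without tumours 3 and 10. For Ccnd1 the difference was -7.73 points, or -5.15 and -12.6 without the same tumours. By rank of CPM, Ccnd1 was the highest of the 5 in 8 of 11 control tumours and in 4 of 12 abemaciclib tumours, where Ccnd3 was highest in 5 and Cdk4 in 3. Cdk6 held rank 4 and Ccnd2 rank 5 in all 23.

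Cdk4 took 91.4% ± 2.24 of the Cdk4 and Cdk6 counts among controls and 90.6% ± 2.53 under abemaciclib, a difference of -0.80 percentage points (SE 0.994, p = 0.431, adjusted p = 0.530, permutation test), and -1.36 to -0.511 with any 1 tumour left out. The shares ran from 85.9% to 94.3% and from 87.4% to 94.8%. The summed D-type cyclins relative to the summed kinases stood at a log2 ratio of 0.92 ± 0.459 and 1.01 ± 0.342, a difference of 0.09 (SE 0.170, p = 0.615, adjusted p = 0.615).

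**Figure D2:**
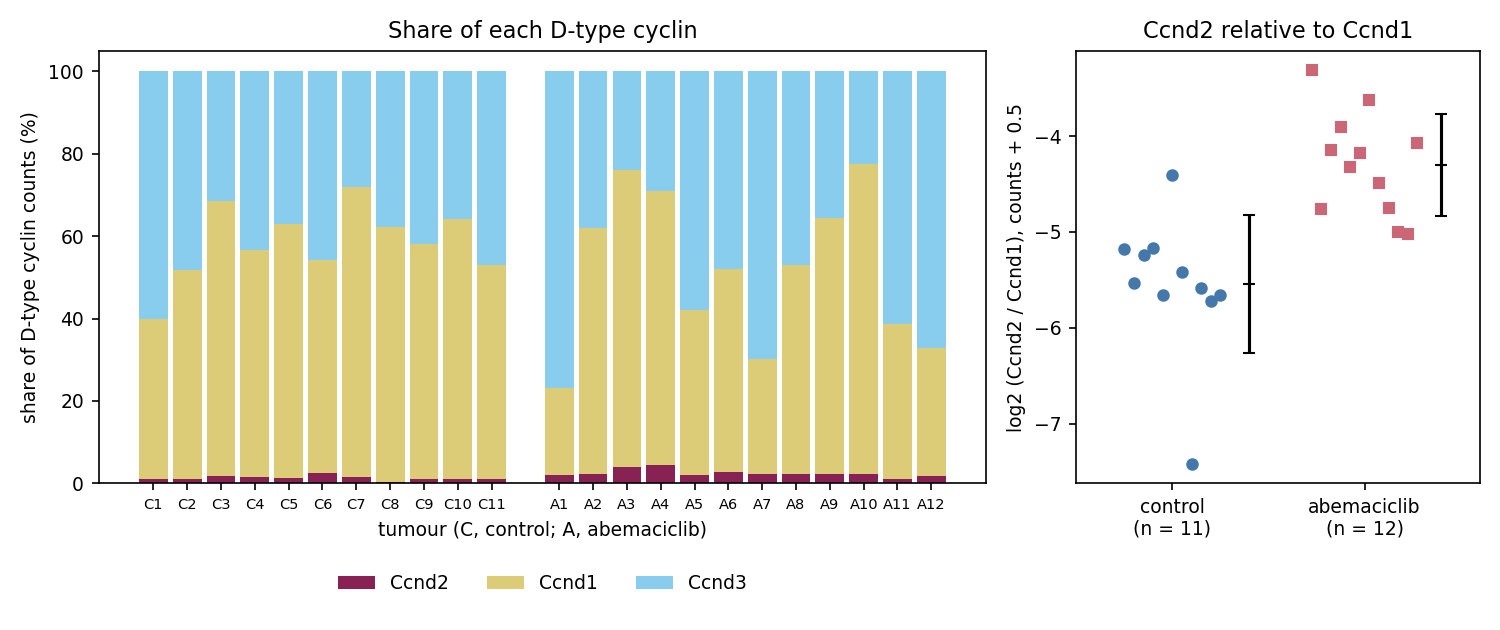
Left, the share of D-type cyclin counts (vertical axis, percent) from Ccnd2, Ccnd1 and Ccnd3 in each tumour; right, log2 of Ccnd2 over Ccnd1 in 11 control tumours (circles) and 12 abemaciclib tumours (squares) with mean and SD. Control tumour 8 is lowest at -7.42, and 7 abemaciclib tumours lie above the highest control tumour at -4.41.

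The genes were next related to each other across tumours of 1 group at a time, as log2 CPM. Of 20 relations, 10 in each group, 2 in control and 6 in abemaciclib tumours passed by Pearson's r after adjustment over the 20 (two-sided permutation tests). By Spearman's rho, 2 and 9 passed. Over all pairs of tested genes the median absolute r was 0.299 in control and 0.331 in abemaciclib tumours. How many of all pairs would pass in each group was not computed. The counts therefore do not show a difference between the groups, and no tested difference in r, given below, passed adjustment. Ccnd1 with Ccnd2 passed by rank only in control tumours (adjusted p = 0.0463). In abemaciclib tumours this held for Cdk4 with Ccnd2 (adjusted p = 0.0147), Cdk4 with Ccnd3 (0.0494) and Ccnd2 with Ccnd3 (0.0323). Among Cdk4, Cdk6, Ccnd1 and Ccnd2 all r were above 0, from 0.146 (Cdk4 with Ccnd2 in control) to 0.862, while those of Ccnd3 had both signs.

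The kinases tracked each other with r = 0.707 in control (p = 0.0129, adjusted p = 0.0369; rho = 0.745, p = 0.0106) and r = 0.749 in abemaciclib tumours (p = 0.00709, adjusted p = 0.0236; rho = 0.804, p = 0.00235). Without the 2 tumours farthest from the median of Cdk4, r was 0.590 and 0.593. It no longer passed in abemaciclib tumours without tumours 3 and 10 (r = 0.690, adjusted p = 0.0692). In the control group 5.85% of all pairs of tested genes, and in the abemaciclib group 5.95%, had an absolute r as high, so such values are common in these tumours.

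Ccnd1 tracked Cdk4 in abemaciclib tumours with r = 0.860 (p = 6.6e-04, adjusted p = 0.0044; rho = 0.839, p = 0.00104), and r was 0.849 without the 2 tumours farthest from the median of Cdk4. In control tumours it was 0.571 (p = 0.0673, adjusted p = 0.0913; rho = 0.600, p = 0.0576; 0.482 without 2 tumours), or 0.690 without control tumour 8, where it passed (adjusted p = 0.0487). Ccnd1 with Ccnd2 had r = 0.858 in abemaciclib tumours (p = 3.3e-04, adjusted p = 0.0033; rho = 0.909, p = 1.3e-04; r = 0.793 without 2 tumours) and 0.628 in control tumours (p = 0.0397, adjusted p = 0.0669; rho = 0.691, p = 0.0231; 0.484 without 2 tumours), or 0.805 without control tumour 8 (adjusted p = 0.0137). Between 1.21% and 1.26% of all gene pairs in the abemaciclib group had an absolute r as high as these 2.

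Cdk6 followed the same cyclins. With Ccnd2 it had r = 0.862 in abemaciclib tumours (p = 2.7e-04, adjusted p = 0.0033; rho = 0.888, p = 2.3e-04; 0.869 without 2 tumours) and 0.510 in control tumours (p = 0.106, adjusted p = 0.132; rho = 0.655, p = 0.0337; 0.509 without 2 tumours). Control tumour 8, which had the fewest Ccnd2 counts, lowered that control value, and r was 0.863 without it (adjusted p = 0.00828). With Ccnd1, Cdk6 had r = 0.815 in abemaciclib tumours (p = 0.00207, adjusted p = 0.0103; rho = 0.783, p = 0.00365; 0.824 without 2 tumours), or 0.731 without tumours 3 and 10, where it did not pass (adjusted p = 0.0581).

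Relations of Ccnd3 depended on the processing and on single tumours. In abemaciclib tumours it fell as Ccnd1 rose, with r = -0.783 (p = 0.00323, adjusted p = 0.0129; rho = -0.818, p = 0.00179; -0.721 without 2 tumours). On library totals alone that r was -0.0289, and without tumours 3 and 10 it was -0.721 and did not pass (adjusted p = 0.0600). In control tumours Ccnd3 and Ccnd2 had r = 0.737 (p = 0.0148, adjusted p = 0.0370) but rho = 0.400 (p = 0.226), and r was -0.00993 without the 2 tumours farthest from the median of Ccnd2 and 0.431 without control tumour 8, so it rested on those tumours. The difference between the groups' correlations, tested for the 10 pairs by permuting the labels of group-centred tumours, was largest for Ccnd2 with Ccnd3 (-1.33, p = 0.0134) and Ccnd1 with Ccnd3 (-1.10, p = 0.0188). Neither passed adjustment over the 10 (adjusted p = 0.0940 each), and the other 8 had p from 0.121 to 0.836.

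**Figure D3:**
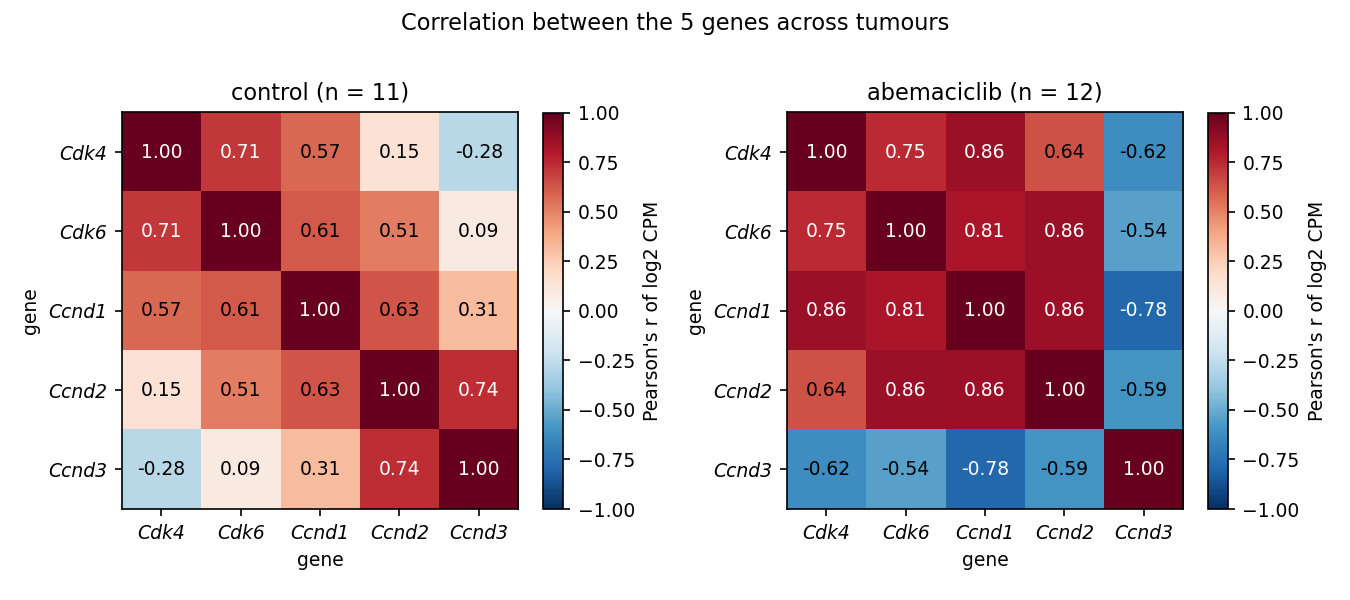
Pearson's r of log2 CPM between each pair of the 5 genes (both axes) across 11 control tumours (left) and 12 abemaciclib tumours (right), with red positive and blue negative. The block of Cdk4, Cdk6, Ccnd1 and Ccnd2 is positive in both groups, and the row of Ccnd3 is negative in abemaciclib tumours, where on library totals its r lay near 0, from -0.0706 with Cdk6 to 0.0775 with Cdk4.

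Levels were then set beside 9 marker lists, the library total and Rn7sk, a small nuclear RNA that takes a large part of the reads, in 110 relations within groups. Adjusted over the 110, 8 passed by Pearson's r, 1 in control and 7 in abemaciclib tumours, and 5 by Spearman's rho, 1 and 4. The share of all tested genes that would pass with the same measures was not computed. These counts therefore do not set the members apart from other genes, or the groups from each other. Proliferation markers, 14 of 16 on the panel and led by Mki67, a marker of dividing cells, summed to 394 to 2016 CPM among controls and 91.6 to 1398 CPM under abemaciclib. Their sum tracked Ccnd1 in abemaciclib tumours with r = 0.928 (p = 2e-05, adjusted p = 0.00165; rho = 0.923, p = 9e-05; 0.954 without the 2 tumours farthest from the median of the sum). It tracked Cdk4 there with r = 0.858 (p = 6e-04, adjusted p = 0.0141; rho = 0.874, p = 3.5e-04; 0.794 without 2 tumours). In control tumours r was 0.599 for Ccnd1 (adjusted permutation p = 0.205) and 0.621 for Cdk4 (adjusted permutation p = 0.186), and control tumour 8 had the highest sum. There rho was 0.791 for Ccnd1 (permutation p = 0.0057, adjusted p = 0.0753) and 0.664 for Cdk4 (permutation p = 0.0298, adjusted p = 0.156). Without the 2 tumours farthest from the median, r was 0.825 for Ccnd1 and 0.413 for Cdk4. The difference between the groups was not tested. No relation of a member with the library total or Rn7sk passed, and none of Cdk6 did with any of these measures. Ccnd2 with the proliferation sum in abemaciclib tumours passed by rank only (r = 0.746, p = 0.0054, adjusted p = 0.0660; rho = 0.832, p = 0.00146, adjusted p = 0.0321; r = 0.836 without 2 tumours).

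Other cell markers went with the same genes. In abemaciclib tumours Ccnd1 rose with the basal or myoepithelial sum (r = 0.856, p = 3e-05, adjusted p = 0.00165; rho = 0.825, p = 0.00141; 0.809 without 2 tumours) and fell with the adipocyte sum (r = -0.831, p = 9.9e-04, adjusted p = 0.0181; rho = -0.797, p = 0.00323; -0.790 without 2 tumours). Ccnd1 also went with the basal sum in control tumours, where it passed by rank only (r = 0.706, p = 0.0160, adjusted p = 0.111; rho = 0.855, p = 0.00144, adjusted p = 0.0321; r = 0.598 without 2 tumours). Cdk4 rose with the luminal sum (r = 0.794, p = 6.4e-04, adjusted p = 0.0141; rho = 0.727, p = 0.0101; 0.571 without 2 tumours) and fell with the macrophage sum (r = -0.819, p = 0.00197, adjusted p = 0.0271; rho = -0.713, p = 0.0112; -0.775 without 2 tumours). Ccnd3 rose with the adipocyte sum (r = 0.855, p = 3.8e-04, adjusted p = 0.0139; rho = 0.797, p = 0.00283; 0.857 without 2 tumours), or 0.247 on library totals. In control tumours Cdk4 fell with the endothelial sum (r = -0.863, p = 0.00126, adjusted p = 0.0198; rho = -0.655, p = 0.0340, not passing by rank with adjusted p = 0.162; -0.581 without 2 tumours). Adipocyte markers, 5 of 7 on the panel, summed to 54.5 to 389 CPM among controls and 77.4 to 574 CPM under abemaciclib, and endothelial markers, 7 of 8, to 359 to 801 and 297 to 674 CPM. Most of the adipocyte sum was Lpl (means of 122 CPM among controls and 207 under abemaciclib) and Fabp4 (54.3 and 51.3). Adipoq (4.1 and 5.4 CPM), Pparg (2.8 and 3.7) and Lep (0.15 and 0.48) gave few reads. The basal sum was mostly Krt14 (936 and 1752 CPM), Acta2 (589 and 637) and Krt5 (333 and 573). In abemaciclib tumours Krt14 ran from 277 to 47731 counts and Krt5 from 39 to 14973, against 1027 to 3730 for Acta2. Relations with single markers were not tested. The macrophage sum was mostly Cd14, as given above. In abemaciclib tumours the luminal and macrophage relations of Cdk4 did not pass by Spearman's rho (adjusted p = 0.101 and 0.102). Nor did the adipocyte relations of Ccnd1 and Ccnd3 by that measure (adjusted p = 0.0508 each). On library totals the macrophage and endothelial relations of Cdk4 no longer passed (r = -0.653 and -0.542). Without abemaciclib tumours 3 and 10, 5 of the 7 relations in that group did not pass, with r of 0.834 (Cdk4 with proliferation), 0.759 (luminal) and -0.824 (macrophage), and of 0.809 (Ccnd1 with basal) and -0.704 (adipocyte). Those of Ccnd1 with proliferation (0.887) and of Ccnd3 with adipocyte markers (0.869) still did (adjusted p = 0.0462 each). The share of each cell type in these relations was not tested.

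**Figure D4:**
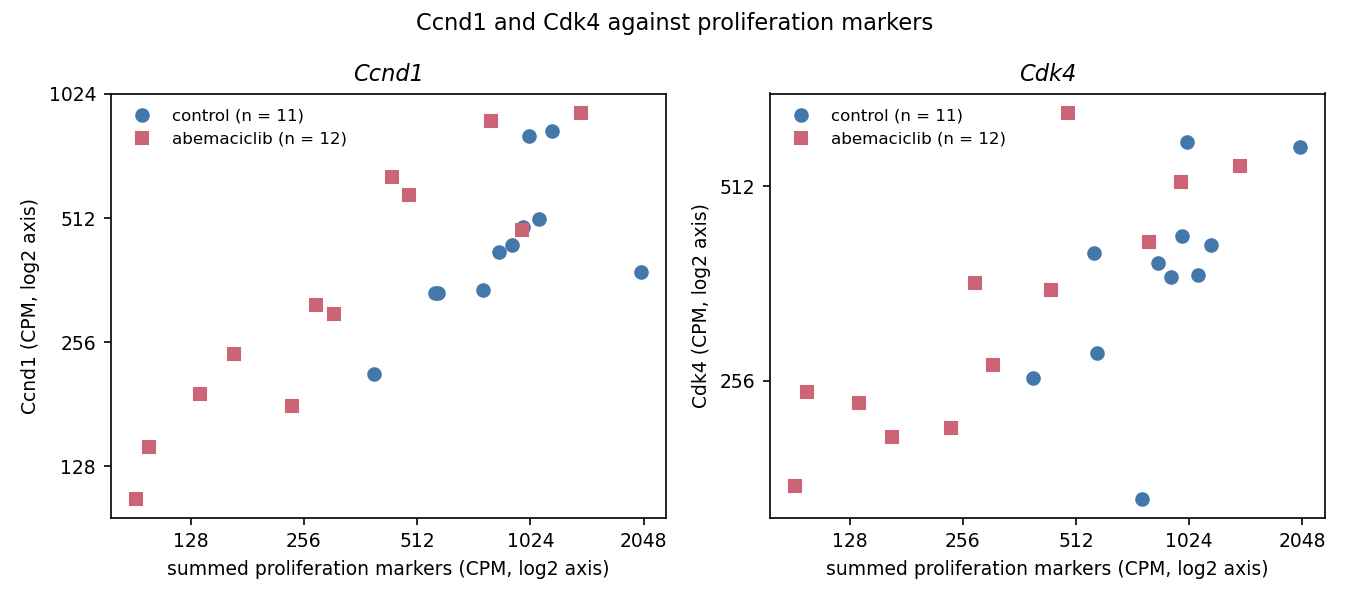
Ccnd1 (left) and Cdk4 (right) in CPM against the summed CPM of 14 proliferation markers, both on log2 axes, in 11 control tumours (circles) and 12 abemaciclib tumours (squares). The abemaciclib tumours extend to lower sums, 91.6 CPM at the lowest against 394 in control, and Ccnd1 is lowest where the sum is lowest.

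For each member the 3 genes of highest and the 1 of lowest Pearson's r were taken over 23 tumours, from log2 CPM centred on the group means, among 2924 other genes. These are descriptions of shared spread and carry no test. For Ccnd1 they were Perp, a desmosomal membrane protein (r = 0.899), Psrc1, which binds spindle microtubules (0.897), and Dsp, desmoplakin (0.891), with Atp1b1, a sodium pump subunit, lowest at -0.892. For Cdk4 they were Thbs1, thrombospondin (0.883), Tubb6, a tubulin (0.878), and Ruvbl1, an ATPase of chromatin complexes (0.874), with the vessel growth factor Angpt1 lowest at -0.912. Cdk6 went with Anxa2, an annexin (0.853), Gli3, a Hedgehog pathway factor (0.829), and Timp1, a metalloprotease inhibitor (0.818), and least with Cyb561 (-0.802).

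The cyclins D2 and D3 had other neighbours. Ccnd2 went with Pdpn, podoplanin (r = 0.828), Vcan, the matrix proteoglycan versican (0.790), and Bmp7, a signalling ligand (0.775), and least with Grb7, an adaptor of receptor kinases (-0.705). Ccnd3 went with Ucp2, a mitochondrial carrier (0.840), Slc34a2, a phosphate transporter (0.818), and Lama1, a laminin chain (0.779), and least with Fhl2, a LIM domain protein (-0.794). Ccnd1 was in place 7 of 2924 for Ccnd2 (0.753) and in place 11 for Cdk6 (0.776). The reverse places were lower: for Ccnd1, Cdk6 was in place 82, Cdk4 in 94 and Ccnd2 in 103. For Cdk4, Ccnd1 was in place 91, Cdk6 in 161 and Ccnd2 in 611. Mki67 was in place 16 for Ccnd1 (0.865), 127 for Cdk4 (0.727), 147 for Cdk6 (0.622), 225 for Ccnd2 (0.451) and 2644 for Ccnd3 (-0.475).

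The genes that act with these 5 had mostly negative log2 fold changes, while those of the members had both signs. Of 59 listed pathway genes, 48 were on the panel and 47 were tested. None passed over all genes by edgeR, and 35 had negative and 12 positive log2 fold changes, beside 1429 negative of all 2925 tested genes. The median was -0.17, against 0.0055 over all tested genes and 0.04 over the 5 members. The listed genes were read in the same tumours, so their signs are not separate observations. At an unadjusted p under 0.05, 11 of the 47 were lower and 0 higher, beside 5.81% and 7.59% of all tested genes.

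The nearest partners, the INK4 inhibitors of CDK4 and CDK6, were negative in 4 of 4 with a median of -0.36. Cdkn2c (p18) had 31.9 ± 14.8 CPM among controls and 13.4 ± 5.48 CPM under abemaciclib, a log2 difference of -1.25 (adjusted p = 0.0574 by edgeR) and 12 of 12 below the control median. Cdkn2d (p19) stood at -0.52 (adjusted p = 0.208), Cdkn2b (p15) at -0.20 (adjusted p = 0.681) and Cdkn2a, which encodes p16 and ARF, at -0.18 (adjusted p = 0.620). Among the CIP/KIP proteins, which inhibit CDK2 and help assemble cyclin D complexes, Cdkn1b (p27) was at -0.43 (adjusted p = 0.185), Cdkn1a (p21) at -0.03 and Cdkn1c (p57) at 0.05.

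Downstream of the kinases, Rb1, the substrate that gives the pathway its name, had 681 ± 134 and 701 ± 145 CPM, a log2 difference of 0.04 (adjusted p = 0.927). Its relatives Rbl1 (p107) and Rbl2 (p130) were at -0.58 (adjusted p = 0.213) and -0.22 (adjusted p = 0.614). All 7 tested E2F and DP genes were negative with a median of -0.33, with E2f2 at -0.53 (adjusted p = 0.190) and E2f1 at -0.50 (adjusted p = 0.280). Of the cyclin E, cyclin A and CDK2 genes, all 4 tested were negative with a median of -0.67. Ccna2 was at -1.32 (adjusted p = 0.146), Ccne2 at -0.96 (adjusted p = 0.185), Cdk2 at -0.39 (adjusted p = 0.299) and Ccne1 at -0.11 (adjusted p = 0.943). Mki67 had 90.1 ± 32.2 and 43.7 ± 32.0 CPM, a log2 difference of -1.04 (adjusted p = 0.150).

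Upstream genes were spread around 0. The 19 tested inducers of cyclin D transcription had 8 positive and 11 negative values and a median of -0.07, with the AP-1 gene Fosl1 at 0.98 (adjusted p = 0.398), the early-response gene Egr1 at -0.36 (adjusted p = 0.436) and Erbb2, a receptor that drives mammary tumours, at -0.12 (adjusted p = 0.771). Whether the mouse Erbb2 amplicon reads an induced transgene is not known. Of the cyclin D turnover list 3 of 10 were on the panel, with the ubiquitin ligase subunit Skp2 at -0.72 (adjusted p = 0.214) and the kinase Gsk3b, which marks cyclin D1 for removal, at 0.08 (adjusted p = 0.883). The 4 genes of the CDK-activating kinase and CDC25A had a median of -0.12, with Cdc25a at -0.24 (adjusted p = 0.565) and Ccnh at -0.17 (adjusted p = 0.610).

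**Figure D5:**
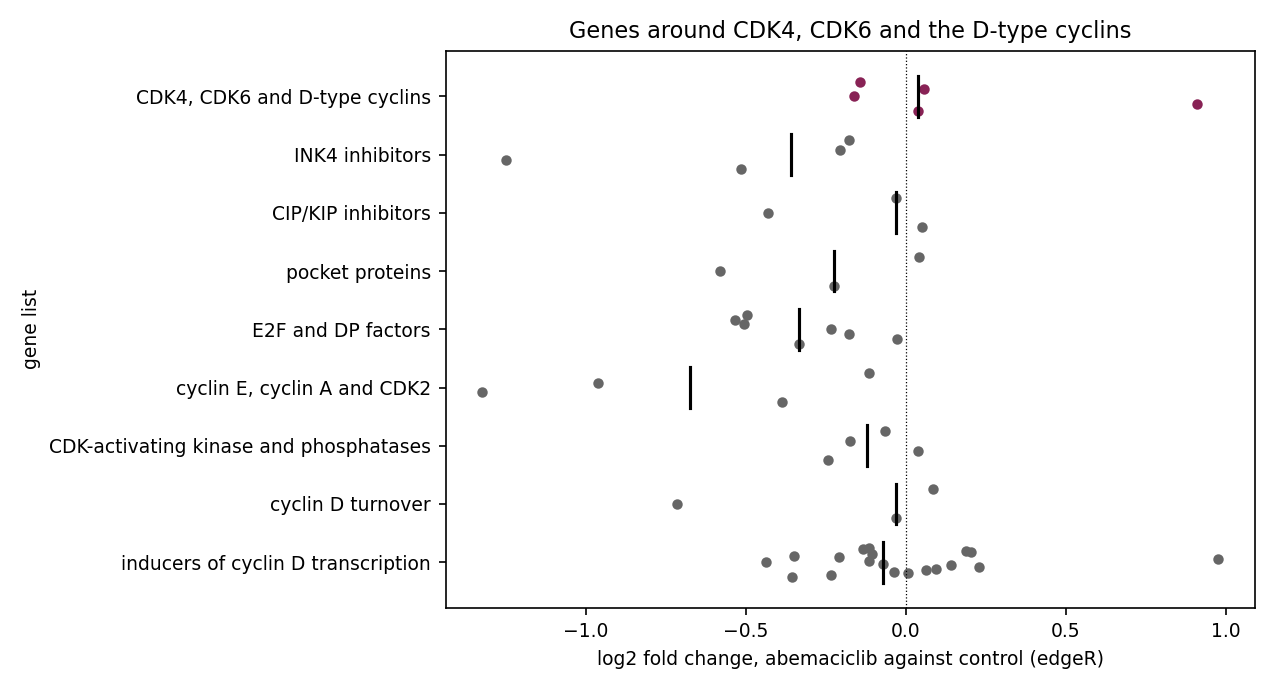
Log2 fold change of abemaciclib against control by edgeR (horizontal axis) for the 5 members and the 47 tested genes of 8 pathway lists (points), with each list's median as a bar. Ccnd2 at 0.91 stands apart from the other 4 members, and the INK4, E2F and cyclin E lists lie at or below 0.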

How the data were processed

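RNA from 23 tumours was read with an Ion AmpliSeq custom panel of 3826 mouse genes, per the labels' protocols. The authors deposited raw counts of reads per gene, with no normalization. Per the submitters' processing notes the genome build was mm10. The sources used here do not name the aligner or counter. Gene positions are from GENCODE M21 (GRCm38).

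Counts were fitted in R 4.3.3 with edgeR 4.0.16 (filterByExpr, which kept 2925 genes and set 901 aside, TMM, glmQLFit and glmQLFTest, two-sided, Benjamini-Hochberg at 0.05), and checked on simulated data. DESeq2 1.42.0 and limma 3.58.1 were alternatives. Log2 CPM used a prior count of 2, and log2 ratios used counts plus 0.5. Permutation tests drew 100000 resamples in Python 3.11.15, so 1e-05 is the smallest p they can give. No pair among 253 pairs of tumours agreed within sampling noise (smallest chi-square per degree of freedom 18.4).

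The members and lists were chosen with earlier results of these data known. Named were the 5 members, 11 fixed genes (Mki67, Rb1, Cdkn2a, Cdkn2b, Cdkn2c, Cdkn1a, Cdkn1b, Ccne1, Ccne2, Cdk2 and Erbb2), up to 2 genes of smallest p from each pathway list, and the most and least similar genes. The labels do not say that shared tumour numbers pair the groups, and the main fit used no pairing. Tests without abemaciclib tumours 3 and 10 or control tumour 8, of spread, of the difference between correlations, and with the library total and Rn7sk were added after seeing the data. Levels of 1 marker list are not reported here.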

Additional observations from a re-analysis of the deposited data

How the results depend on the processing

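Ccnd2 relative to Ccnd1 and the Ccnd2 share passed under every alternative run for them (medians, each tumour left out, abemaciclib tumours 3 and 10 left out and, for the ratio, 1 or 5 reads added). Fold changes of Cdk4, Ccnd1 and Ccnd2 kept their sign and did not pass under any alternative, but their size moved by over 1.5 times: Cdk4 lay between -0.27 and -0.064, and Ccnd1 between -0.55 and -0.042. Cdk6 turned to -0.040 on library totals, -0.042 by limma-voom and -0.12 without abemaciclib tumours 3 and 10, and ranged from -0.037 to 0.13 with 1 tumour left out, negative without abemaciclib tumour 3, 9 or 10. Ccnd3 turned to -0.093 on library totals and -0.015 by limma-voom, and ranged from -0.0037 to 0.077, negative without control tumour 8. Library totals moved the median of all genes to -0.12, so both lay above that median. The cause of the other turns was not tested.

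Genes called numbered 0 by edgeR, 1 on library totals, 60 by DESeq2's Wald test, 127 by limma-voom and 93 without abemaciclib tumours 3 and 10. With 1 tumour left out they ranged from 0 to 47, above 0 without abemaciclib tumours 2, 3, 5, 9 or 10 or control tumours 1, 5 or 6. The ratio of cyclins to kinases ranged from -0.0099 (without control tumour 8) to 0.17. Ccnd2 over Ccnd3 ranged from 0.66 to 0.95 and passed without abemaciclib tumour 11. The labels do not say whether shared tumour numbers pair the groups. Of same-numbered pairs 5 of 11 correlated above 0.1 (from -0.428 to 0.453), and 2 of 11 control tumours matched their own number best. Likeness of profiles cannot decide whether such tumours shared a batch or run. With the replicate number as a block in edgeR, Ccnd2 was at 0.92 (p = 0.00464, adjusted p = 0.186) and 0 genes were called.

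Correlations moved with scaling. On library totals the control r became 0.681 for Cdk4 with Ccnd1, 0.767 for Cdk6 with Ccnd1 and 0.715 for Ccnd1 with Ccnd3 (all passing), 0.188 for Cdk4 with Ccnd3 (sign turned) and 0.569 for Ccnd2 with Ccnd3 (call lost). In abemaciclib tumours it became 0.720 for Cdk4 with Ccnd2 (passing), 0.0775 for Cdk4 with Ccnd3 (turned) and -0.0289 for Ccnd1 with Ccnd3 (lost). Calls were also lost there for the macrophage sum with Cdk4 (-0.653), the adipocyte sum with Ccnd3 (0.247) and, in control, the endothelial sum with Cdk4 (-0.542). Without abemaciclib tumours 3 and 10, which leaves 10 tumours, calls were lost for Cdk4 with Cdk6 (0.690), Cdk6 with Ccnd1 (0.731), Ccnd1 with Ccnd3 (-0.721), and for Cdk4 with the proliferation (0.834), luminal (0.759) and macrophage (-0.824) sums and Ccnd1 with the basal (0.809) and adipocyte (-0.704) sums. Without control tumour 8, Cdk4 with Ccnd1 (0.690) and with Ccnd2 (0.748), Cdk6 with Ccnd2 (0.863) and Ccnd1 with Ccnd2 (0.805) passed, Ccnd2 with Ccnd3 (0.431) did not, and Cdk4 with Ccnd3 turned (0.058). Depth limits Ccnd2 most, at 10 counts in control tumour 8.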

Other observations

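Other pathway genes shared the spread of the members, as group-centred Pearson's r over 23 tumours, given without a test and named after their values were seen. Ccne1, cyclin E1, had r = 0.873 with Ccnd1 and 0.810 with Cdk4. Ccna2, cyclin A2, had 0.828 with Ccnd1, E2f1 had 0.823 with Ccnd1, and Tfdp1, the partner of E2F factors, had 0.824 with Cdk4. Stat5b, a transcription factor of prolactin signalling, ran the opposite way, at -0.889 with Ccnd1, -0.827 with Cdk4 and -0.799 with Cdk6, and at 0.506 with Ccnd3. Its relative Stat5a had -0.749 with Ccnd1 and 0.711 with Ccnd3. Cdkn1a, the inhibitor p21, had positive r with the same genes, 0.740 with Ccnd1 and 0.650 with Ccnd2. Myc, a known regulator of Cdk4, had 0.0235 with Cdk4 and 0.0326 with Ccnd1, and Erbb2 had -0.0298 with Cdk4 and -0.180 with Ccnd1. The members of this set share libraries and scaling, and signs for Ccnd3 are sensitive to the latter.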
